A study of Mus musculus with 2 samples.

Results

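The genes described here are 8 of the 31053 genes counted in 2 single-cell RNA-sequencing libraries of cultured mouse brain pericytes (PCs): *B2m*, *H2-K1*, *H2-D1*, *Tap1*, *Tap2*, *Tapbp*, *Nlrc5* and *Erap1*. They were taken by symbol because their products act in MHC class I antigen presentation, and each symbol matched 1 gene. PCs are the mural cells that wrap brain capillaries. The libraries came, 1 each, from PCs at passage 5 (PC5) and at passage 20 (PC20), both from brains of wild type female C57BL/6N mice aged 6 to 8 weeks, with 6 brains pooled per isolation. By the study's methods each passage had its own isolation, while the deposited description names a single set of mice, so the effects of passage and of isolation cannot be told apart.

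Every value below rests on cells with more than 1000 genes and under 20% of their unique molecular identifiers (UMIs, tags of single captured RNA molecules) from mitochondrial genes. This kept 9950 of 10629 PC5 barcodes and 4749 of 4884 PC20 barcodes, with a median of 21700 and 33424 UMIs per cell. The libraries had 20 barcode sequences in common. Of 5 pericyte markers, *Pdgfrb* had 44.6 CPM in PC5 and 5.43 in PC20, *Cspg4* 5.55 and 0.0994 CPM (1237 and 19 UMIs), *Anpep* 1.93 and 3.00 CPM, *Rgs5* 405 and 0 UMIs, and *Abcc9* 1 UMI in each. Of these markers only *Pdgfrb* was well above the others in PC5, where *Cspg4* was found in 10.1% of cells. The fibroblast marker *Pdgfra* had 88.6 CPM in PC5, above *Pdgfrb*, and 0.131 CPM in PC20. All 5 pericyte markers were low or absent in PC20.

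MHC class I molecules show fragments of a cell's own proteins to CD8 T cells and natural killer cells. A heavy chain pairs with the light chain beta-2-microglobulin and takes up a peptide in the endoplasmic reticulum. The proteasome cuts the peptides, the TAP transporter carries them into the endoplasmic reticulum, aminopeptidases trim them there, and tapasin holds the empty heavy chain beside TAP until a fitting peptide binds. Interferons are known to raise transcription of most of these genes, and NLRC5 acts at a shared group of promoter elements. Most brain cells show little class I at rest.

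5 of the 8 genes lie in the MHC on chromosome 17 (GRCm38, GENCODE M21). *H2-K1* (ENSMUSG00000061232) spans 33996017 to 34000347 on the minus strand in 8 exons, and *H2-D1* (ENSMUSG00000073411) spans 35262730 to 35267499 on the plus strand, also in 8 exons. *Tapbp* begins at 33915899, *Tap1* at 34187553 and *Tap2* at 34203527. *B2m* (ENSMUSG00000060802) lies on chromosome 2 from 122147686 to 122153083 in 4 exons, *Erap1* on chromosome 13 from 74639568 to 74693201 and *Nlrc5* on chromosome 8 from 94434356 to 94527272.

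RefSeq promoter windows of 300 bases (GRCm38, the build of the files) were at hand for 6 of the 8 genes, all but *Tap2* and *Nlrc5*. Those of the light chain and both heavy chains, which differed most between the libraries, are shown beside that of *Tapbp*, which differed the other way, and of *Tap1*. Capitals mark a match on either strand to the NF-kB site GGGATTCCC, the interferon regulatory factor (IRF) core AANNGAAA, the letters TGACG of the cyclic-AMP response element, or CCAAT. Each window runs 5′ to 3′ on the strand of its gene, and B2m is at chr2:122147437-122147736 (plus), H2-K1 at chr17:34000298-34000597 (minus), H2-D1 at chr17:35262844-35263143 (plus), Tapbp at chr17:33919228-33919527 (plus) and Tap1 at chr17:34187306-34187605 (plus).
B2m: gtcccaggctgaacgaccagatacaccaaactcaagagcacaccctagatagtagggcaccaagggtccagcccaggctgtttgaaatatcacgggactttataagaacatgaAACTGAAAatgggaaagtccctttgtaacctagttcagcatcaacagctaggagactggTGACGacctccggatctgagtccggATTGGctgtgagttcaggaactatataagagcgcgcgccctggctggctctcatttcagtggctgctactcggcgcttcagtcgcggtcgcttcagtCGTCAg
H2-K1: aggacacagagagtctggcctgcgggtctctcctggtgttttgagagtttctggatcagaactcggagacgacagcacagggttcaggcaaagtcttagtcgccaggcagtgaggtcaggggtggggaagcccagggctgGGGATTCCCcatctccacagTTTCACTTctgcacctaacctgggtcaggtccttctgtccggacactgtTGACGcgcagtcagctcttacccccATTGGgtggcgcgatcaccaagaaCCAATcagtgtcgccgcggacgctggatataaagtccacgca
H2-D1: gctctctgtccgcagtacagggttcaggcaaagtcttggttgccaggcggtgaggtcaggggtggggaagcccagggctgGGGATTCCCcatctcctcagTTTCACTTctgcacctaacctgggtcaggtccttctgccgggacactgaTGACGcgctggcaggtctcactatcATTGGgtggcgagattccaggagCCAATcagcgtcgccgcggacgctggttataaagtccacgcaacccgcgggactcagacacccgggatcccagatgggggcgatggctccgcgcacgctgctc
Tapbp: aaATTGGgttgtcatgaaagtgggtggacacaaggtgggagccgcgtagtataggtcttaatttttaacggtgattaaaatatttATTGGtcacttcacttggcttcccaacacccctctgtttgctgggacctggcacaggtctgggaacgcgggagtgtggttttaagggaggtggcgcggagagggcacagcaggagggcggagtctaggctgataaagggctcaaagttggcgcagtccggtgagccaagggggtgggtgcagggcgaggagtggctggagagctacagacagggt
Tap1: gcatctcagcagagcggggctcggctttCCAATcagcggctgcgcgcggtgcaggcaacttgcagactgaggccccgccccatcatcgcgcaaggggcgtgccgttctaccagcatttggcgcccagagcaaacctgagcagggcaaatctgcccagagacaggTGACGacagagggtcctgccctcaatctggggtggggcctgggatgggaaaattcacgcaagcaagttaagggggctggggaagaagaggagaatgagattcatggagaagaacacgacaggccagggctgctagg

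The *H2-K1* and *H2-D1* windows matched at 88.3% of 239 aligned bases and held the same motifs in the same order: NF-kB site, IRF core, TGACG and a pair of CCAAT boxes. Counted from the annotated start, the NF-kB site began at -110 in *H2-K1* and at -170 in *H2-D1*. The IRF core likewise began at -90 and -150, and TGACG at -41 and -101, so these motifs kept their spacing and only their distance to the annotated start differed. *B2m* held an IRF core at -137, TGACG at -78 and again, on the other strand, at 44, and a CCAAT box at -53. It held no match to GGGATTCCC, the only NF-kB sequence sought, and other forms of NF-kB site were not searched for. Of the motifs sought, the *Tapbp* window held CCAAT only, the *Erap1* window an IRF core only, and the *Tap1* window TGACG and CCAAT, with 275 of its bases shared with the divergent promoter of the immunoproteasome gene *Psmb9*. The windows of *Tapbp*, *H2-D1* and *Erap1* begin inside the annotated spans of their genes, that of *Tapbp* the furthest in. Sequence before those spans was not searched. Among 27025 promoters, 0.370% held the NF-kB site, 24.2% an IRF core, 21.0% TGACG, 37.9% a CCAAT box and 1.67% the last 3 together. These matches describe letters and not binding.

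Levels are given as CPM, the UMIs of a gene summed over kept cells and scaled to 1000000 UMIs a library, and differences as the log2 ratio of PC5 CPM over PC20 CPM, so that negative values are higher in PC20. Parentheses hold 95% intervals (exact Poisson for CPM, conditional binomial for ratios, Clopper-Pearson for shares of cells), which cover counting error only. No difference between the passages could be checked against replicates, since each has 1 library, and none was tested.

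The light chain was 2.32-fold higher in PC20 and both classical heavy chains were several times higher there. The genes that supply and load peptides differed less and in both directions. *B2m*, the light chain of all class I molecules, had 421 CPM (418 to 423) in PC5 against 976 CPM (972 to 981) in PC20, with a log2 ratio of -1.22 (-1.23 to -1.20) or 2.32-fold. *H2-K1*, a classical heavy chain, had 106 CPM (105 to 107) and 522 CPM (519 to 525), a log2 ratio of -2.30 (-2.32 to -2.28) or 4.93-fold. *H2-D1*, the other classical heavy chain, had 64.6 CPM (63.6 to 65.7) and 517 CPM (514 to 520), a log2 ratio of -3.00 (-3.03 to -2.97) or 8.00-fold. For each of these genes the intervals of the libraries lay far apart.

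The TAP transporter differed far less. *Tap1*, the first of its subunits, had 16.6 CPM (16.0 to 17.1) in PC5 against 26.4 CPM (25.7 to 27.1) in PC20, with a log2 ratio of -0.67 (-0.73 to -0.61). *Tap2*, its partner subunit, had 6.68 CPM (6.35 to 7.03) and 7.30 CPM (6.93 to 7.70), a log2 ratio of -0.13 (-0.23 to -0.02). The intervals of the *Tap2* levels overlapped, though that of its ratio stopped short of 0.

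*Tapbp*, which encodes tapasin, was the gene with the largest difference toward PC5: 45.7 CPM (44.8 to 46.6) in PC5 against 23.1 CPM (22.5 to 23.8) in PC20, with a log2 ratio of 0.98 (0.93 to 1.03). *Erap1*, the aminopeptidase that trims peptides in the endoplasmic reticulum, had 13.5 CPM (13.1 to 14.0) and 11.3 CPM (10.8 to 11.8), a log2 ratio of 0.26 (0.18 to 0.34). *Nlrc5*, the transactivator of class I genes, had only 230 UMIs in PC5 and 355 in PC20, or 1.03 CPM (0.902 to 1.17) and 1.86 CPM (1.67 to 2.06). Its log2 ratio was -0.85 (-1.09 to -0.61), toward PC20 like those of the heavy chains.

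In all, 6 of the 8 genes were higher in PC20 and 2 in PC5. Their median log2 ratio was -0.76. 3 lay past 2-fold toward PC20 and 0 toward PC5. Across the 10504 genes with a UMI in at least 10% of cells of either library, 19.1% lay past 2-fold toward PC20 and 17.9% toward PC5, with a median of -0.03 and the middle 50% from -0.75 to 0.69. Among them, 2.97% had a lower log2 ratio than *H2-D1*, 4.88% than *H2-K1* and 14.6% than *B2m*, and 18.3% had a higher one than *Tapbp*. *Nlrc5* itself did not reach the 10% of cells.

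**Figure D1:**
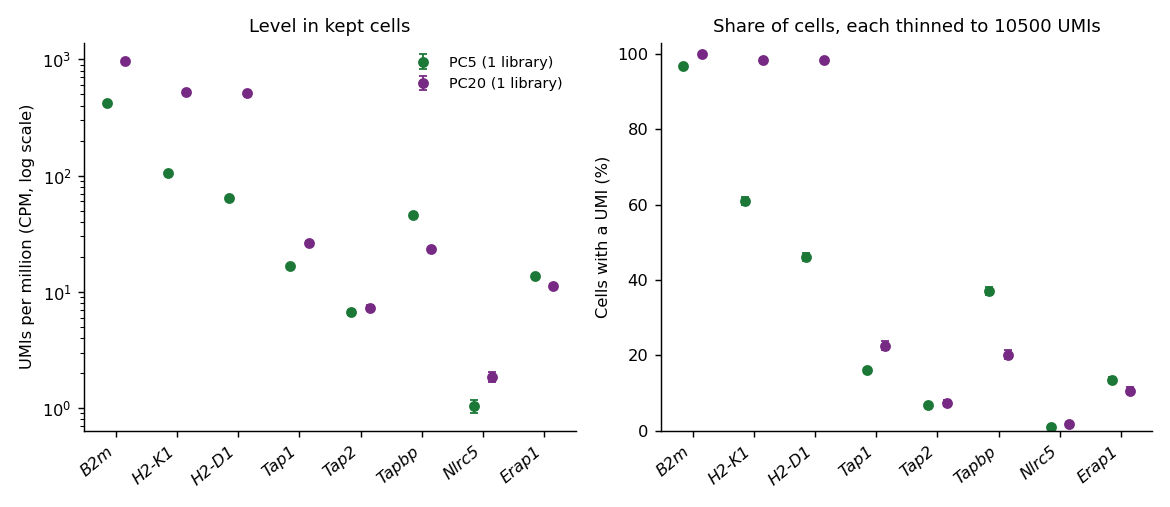
Levels of the 8 genes as CPM on a log axis (left) and the share of cells with a UMI after each cell was thinned to 10500 UMIs (right), for PC5 in green and PC20 in purple, 1 library each, with 95% counting intervals where wider than the point. *B2m*, *H2-K1* and *H2-D1* sit well higher in PC20, *Tapbp* sits higher in PC5, and *Tap2*, *Erap1* and *Nlrc5* lie close together in the right panel.

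By level, the order in PC5 was *B2m*, *H2-K1*, *H2-D1*, *Tapbp*, *Tap1*, *Erap1*, *Tap2* and *Nlrc5*, with no overlap between the intervals of neighbours. In PC20 the order was *B2m*, *H2-K1*, *H2-D1*, *Tap1*, *Tapbp*, *Erap1*, *Tap2* and *Nlrc5*, with *H2-K1* and *H2-D1* overlapping. These are 3′ counts of molecules, not divided by length, and genes may differ in capture, so the balance of genes is better compared between libraries than within 1. PC5 held 61.0 *H2-D1* UMIs (59.8 to 62.3) per 100 of *H2-K1*, and PC20 held 99.0 (98.1 to 99.9). *B2m* had 247 UMIs (244 to 250) per 100 of both heavy chains together in PC5 and 94.0 (93.4 to 94.6) in PC20. *Tapbp* had 26.8 (26.2 to 27.4) per 100 heavy chain UMIs in PC5 and 2.23 (2.16 to 2.29) in PC20, and *Tap1* with *Tap2* had 13.6 (13.3 to 14.0) and 3.24 (3.16 to 3.32). The balance was thus further toward the heavy chains in PC20 for each of these partners.

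PC20 cells were deeper, so shares of cells were also counted after thinning each cell at random to 10500 UMIs, which kept 8847 PC5 and 4474 PC20 cells. A *B2m* UMI was found in 97.8% of PC5 and 99.7% of PC20 cells, and in 96.8% and 99.9% after thinning. For *H2-K1* the shares were 78.1% and 98.6%, and 61.1% and 98.5% after thinning. For *H2-D1* they were 66.7% and 98.6%, and 46.2% (45.2 to 47.3) and 98.4% (98.0 to 98.8) after thinning. Nearly every PC20 cell, but not every PC5 cell, thus held a captured transcript of each classical heavy chain at equal depth.

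The other genes were found in fewer cells, and thinning changed how the libraries compared. *Tap1* was found in 28.6% of PC5 and 53.6% of PC20 cells at full depth. The thinned share of *Tap1* was 16.0% in PC5 and 22.6% in PC20, that of *Tap2* 6.84% and 7.47%, and that of *Tapbp* 37.0% and 20.2%. *Erap1* was found in 25.5% of PC5 and 33.4% of PC20 cells at full depth but in 13.5% and 10.7% after thinning, the order of its CPM. *Nlrc5* was found in 1.13% of thinned PC5 and 1.86% of thinned PC20 cells. Of 6 neuron and blood genes that PCs should lack, *S100a8* had the highest thinned share in PC5, 1.01%, and the highest in PC20 was 0.0671%, while the other 5 genes reached at most 0.0565% in PC5. The PC5 share of *Nlrc5* thus lay just above the first of these and well above the rest.

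The difference in the heavy chains held over the whole population of cells rather than in a few. In thinned cells *B2m* had a median of 4 UMIs in PC5 (5th to 95th percentile 1 to 10) and of 10 in PC20 (4 to 21). *H2-K1* had a median of 1 UMI in PC5 and 5 in PC20, and *H2-D1* of 0 and 5. The distributions overlapped, but only 6.60% of PC5 cells reached the PC20 median of *B2m*, 2.13% that of *H2-K1* and 0.486% that of *H2-D1*. Cells with no UMI of any of the 8 genes numbered 63 of 8847 in PC5 and 0 of 4474 in PC20, which allows a share of up to 0.0671% (3 cells of the total). Summed over the 8 genes, the median cell had 7 UMIs in PC5 and 21 in PC20.

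**Figure D2:**
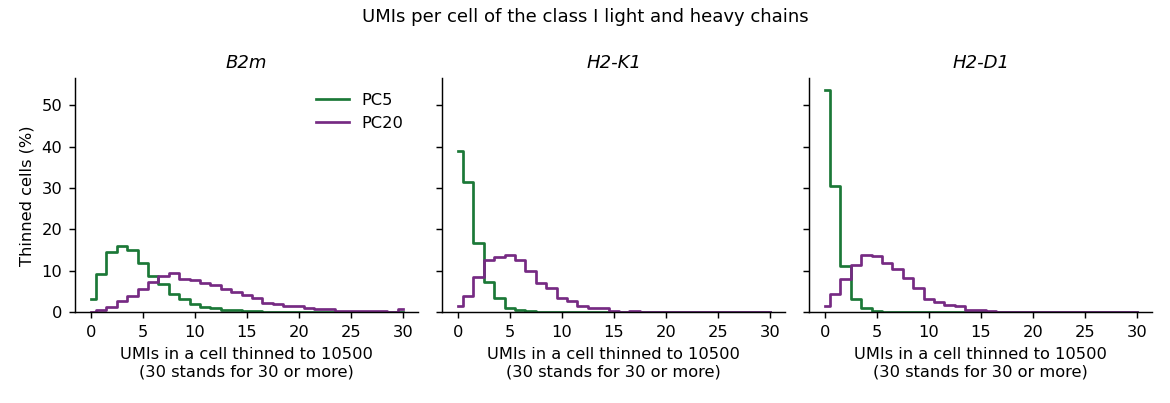
Share of thinned cells (vertical, %) by the UMIs of *B2m*, *H2-K1* and *H2-D1* they held (horizontal), for PC5 in green and PC20 in purple, with cells of 30 or more UMIs in the last step. The PC20 curves peak at higher UMIs for each gene, and most PC5 cells held 0 or 1 *H2-D1* UMI.

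Within a library the genes were only weakly tied to each other from cell to cell. Over thinned PC5 cells the highest Pearson *r* of log counts among the 28 pairs was 0.19, between *B2m* and *H2-K1*, and the median was 0.06. Over thinned PC20 cells it was 0.33 between *B2m* and *H2-D1*, 0.30 between the heavy chains and 0.25 between *B2m* and *H2-K1*, with a median of 0.03 over all pairs. Cells of 1 library share its depth and free RNA, these counts are sparse, and the values are a description only. By the same measure, the genes most like the sum of the 8 in PC5 were *Bst2* (0.32), *Ifitm3* (0.32), *Spp1* (0.29), *Apod* (0.29) and *Itm2b* (0.27), of 7282 compared. In PC20 they were *Itm2b* (0.25), *Mt1* (0.24), the immunoproteasome subunit gene *Psmb8* (0.24), the class I heavy chain *H2-Q7* (0.23) and *Spp1* (0.23), of 7149 compared.

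Cells were next split within each library by the summed UMIs of 24 interferon-stimulated genes, at the limit that at most 20% of thinned cells reach. In PC5, the 1698 cells with 44 or more such UMIs had 97.7 CPM of *H2-D1* against 57.8 in the other cells, a log2 ratio of 0.76 (0.68 to 0.84). There *H2-K1* was at 0.72, *B2m* at 0.69, *Tap1* at 0.90, *Tap2* at 0.81, *Tapbp* at 0.65 and *Erap1* at 0.24, and *Nlrc5* at 1.56 (0.97 to 2.13) on 44 UMIs in those cells. In PC20, the 876 cells with 58 or more had 608 CPM of *H2-D1* against 526, a log2 ratio of 0.21 (0.17 to 0.25), with *H2-K1* at 0.15 and *B2m* at 0.27. For the loading genes of PC20 the ratios were larger, 0.60 for *Tap1*, 0.90 for *Tap2* and 0.63 for *Tapbp*. All 8 genes were higher in the cells rich in interferon-stimulated transcripts in both libraries, though for *Nlrc5* in PC20, on 18 UMIs in those cells, the interval spanned 0. Even the PC5 cells high in these transcripts had less *H2-D1* than the other PC20 cells. Cells high in these transcripts were shallower before thinning, with medians of 19924 against 23912 UMIs in PC5 and 32608.5 against 35524.5 in PC20. *B2m* levels were higher in shallower cells, and the part of depth in these ratios was not tested. The groups are ranges of a score without a gap, with 113 PC5 and 55 PC20 cells right at the limit, and *Ifitm3* alone held 261278 of the 647666 UMIs of the list in PC5.

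Cells with a UMI of *Mki67* or *Top2a*, genes of dividing cells, had slightly less of the light and heavy chains and of the sum they dominate. The sum of the 8 genes had a log2 ratio of cells with over cells without of -0.29 (-0.31 to -0.27) in PC5 and -0.15 (-0.16 to -0.13) in PC20. *B2m* was at -0.33 and -0.21, *H2-K1* at -0.23 and -0.11, and *H2-D1* at -0.15 and -0.07. The scarcer genes varied more. *Nlrc5* was at -1.52 (-2.36 to -0.76) in PC5, on 17 UMIs in the dividing cells, and at -0.70 (-1.35 to -0.06) in PC20. *Tap1* and *Erap1* in PC20 were at 0.05 and 0.0029, with intervals that spanned 0. Dividing cells, by this limit of 1 UMI, were more frequent in PC20, with 2599 of 4474 thinned cells against 3102 of 8847 in PC5. Of them, 594 in PC20 and 1244 in PC5 held just 1 such UMI. Both the share of dividing cells and the level of class I genes were thus higher in PC20. The dividing cells were also deeper before thinning, with a median of 26406 against 21579 UMIs in PC5 and 39367 against 29005 in PC20. Levels of *B2m*, *H2-K1* and *H2-D1* were lower in deeper cells of both libraries. In PC5, *B2m* had 472 CPM in cells of 10000 to 20000 UMIs and 352 CPM in those of 40000 to 60000. Not every gene followed, since *Tapbp* in PC20 had 19.2 and 24.5 CPM in cells of these depths. The part of depth in the difference between dividing and other cells was not tested. Cells were also split at 5 summed UMIs of NF-kB target transcripts, which 899 PC5 and 632 PC20 cells reached. Another 921 PC5 cells lay 1 UMI below this limit. *Vcam1* and *Nfkbiz* had the most UMIs of these targets in PC5, and *Vcam1* and *Nfkbia* in PC20, so the score rested on partly different genes. In the cells high in NF-kB target transcripts the sum of the 8 genes was at 0.10 in PC5 and 0.31 in PC20. There *Tap2* in PC20 reached 1.34 (1.00 to 1.67), while *Nlrc5* was at -1.43 (-3.09 to -0.15) on 5 UMIs in those cells. These cells too were shallower before thinning, with medians of 22254 against 23185 UMIs in PC5 and 30879.5 against 35547 in PC20. The part of depth was not tested here either. *Ccl2* and *Ccl7* had the most chemokine UMIs in PC5, and *Cxcl10* and *Ccl5* in PC20, so a chemokine score too rested on different genes. In cells high in chemokine transcripts the sum was at 0.41 in PC5 and 0.17 in PC20. The limits were 9 UMIs in PC5 (1749 cells) and 3 in PC20 (654 cells). Those cells were shallower than the others in PC5, with medians of 21026 against 23603 UMIs, and deeper in PC20, with 37518.5 against 34530.

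**Figure D3:**
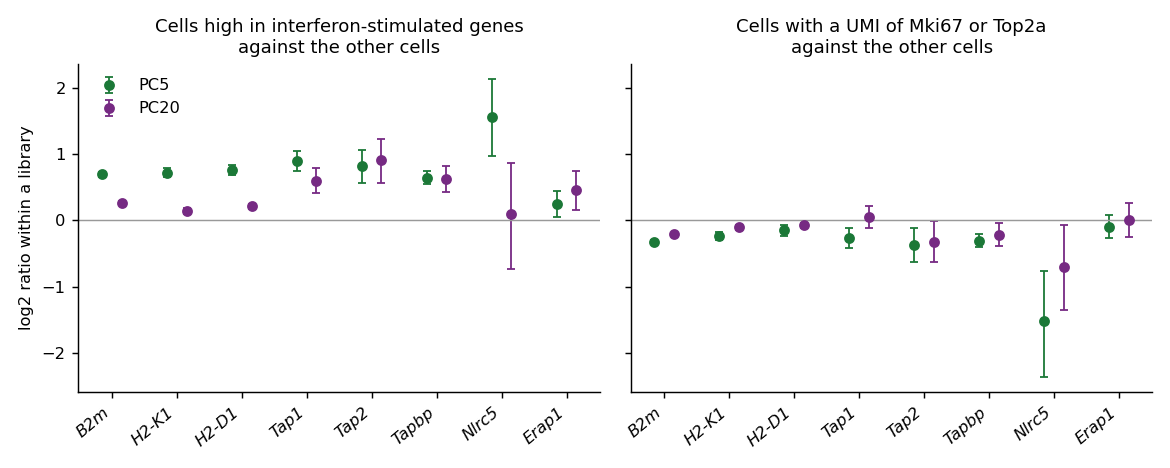
Log2 ratio within a library of each gene in cells high in interferon-stimulated genes over the other cells (left) and in cells with a UMI of *Mki67* or *Top2a* over the other cells (right), after thinning, for PC5 in green and PC20 in purple, with 95% counting intervals. On the left all points lie above 0, and those of *B2m*, *H2-K1* and *H2-D1* are higher in PC5, and on the right most points lie a little under 0.

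Other class I heavy chains differed in both directions. Of 14 non-classical heavy chain genes measured, 6 had a UMI in at least 10% of cells of either library. Past 2-fold lay 5 of them toward PC20 and 0 toward PC5, beside 19.1% and 17.9% of all expressed genes. Of these 5, *H2-Q4*, *H2-Q7*, *H2-Q10* and *H2-M3* reached 10% of cells in PC20 only. They thus passed this filter only through the library where they were found in more cells, and the count is no evidence of a shared direction. *H2-Q7*, which encodes a Qa-2 molecule, had 1.47 CPM in PC5 against 62.4 in PC20, with a log2 ratio of -5.41 (-5.57 to -5.25). *H2-M3*, which presents formylated peptides, was at -2.78, *H2-Q4* at -2.71, and *H2-T23*, which encodes Qa-1, at -1.27. *H2-Q10* had 0.820 CPM in PC5 and 6.32 in PC20. *H2-T22* went the other way, with 76.2 CPM in PC5 against 43.3 in PC20, with a log2 ratio of 0.82 (0.78 to 0.86), and *H2-M9* had 169 UMIs in PC5 and 0 in PC20. Outside the MHC, the class I-like gene *Hfe* had 0.659 CPM in PC5 and 8.62 in PC20, *Mr1* was at 0.96 and the Fc receptor gene *Fcgrt* at -0.40. The thinned PC5 shares of *H2-Q10* (0.757%) and *Hfe* (0.723%) lay below the 1.01% of *S100a8* and that of *H2-Q7* (1.36%) just above it. All 3 lay well above the other neuron and blood genes, which reached at most 0.0565%. Their PC5 UMIs may thus be background in part, and the ratio of *H2-Q7* is only as good as that low level.

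Similar genes can share reads, so identical 60-base windows were sought in the last 500 bases of the longest coding transcript of each gene. None of the 441 windows of *H2-K1* or *B2m* occurred in another gene, and 22 of *H2-D1* did, none of them in a class I gene. *H2-T22* shared 227 windows with *H2-T10*, a gene not among those counted, *H2-Q4* shared 109 with *H2-Q6* and unrelated genes, *H2-T23* shared 133 with other genes, some of them class I, and *H2-Q7* shared 16 with the class I gene *H2-Q5*. The values of these 4 are uncertain to that extent. Windows of *H2-T23* also occurred in *H2-K1*, and windows of *H2-Q2* in *H2-K1* and *H2-D1*, outside the last 500 bases searched for the classical heavy chains. Sharing elsewhere in the transcripts of *H2-K1* and *H2-D1* was not counted.

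The proteasome genes lay on both sides of 0. The constitutive catalytic subunits *Psmb5*, *Psmb6* and *Psmb7* were past 2-fold toward PC20, at -2.22, -1.23 and -1.08, beside 19.1% of all expressed genes. This list is short, so the count is not read as a result about it. Of the immunoproteasome subunits that replace them, *Psmb8* had 41.6 CPM in PC5 against 37.6 in PC20, with a log2 ratio of 0.14 (0.10 to 0.19), *Psmb9* was at -1.35 and *Psmb10* at 0.54. The activator subunits *Psme1* and *Psme2* were at 0.04 and 0.46. Of 6 genes of peptide loading and folding control, 0 lay past 2-fold either way, beside 17.9% of all expressed genes toward PC5 and 19.1% toward PC20. Calreticulin (*Calr*) was at -0.06, calnexin (*Canx*) at 0.58, *Pdia3* at -0.51, the tapasin-like *Tapbpl* at 0.56 and the aminopeptidase *Lnpep* at 0.92.

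The regulators of class I transcription showed no common direction. Of 12 factors known to act on class I promoters, 1 lay past 2-fold toward PC5, *Rfx5* at 1.51, and 2 toward PC20, *Rfxap* at -1.52 and *Rfxank* at -1.02, though these 3 encode subunits of a single complex. *Irf1*, a main activator of class I genes, had 16.9 CPM in PC5 and 13.8 in PC20 (0.30), *Irf2* was at -0.88, and the NF-kB subunits *Rela* and *Nfkb1* were at 0.17 and 0.01. Of 11 genes of interferon receptors and signalling, 3 lay past 2-fold toward PC5, *Jak2* at 1.88, *Ifngr2* at 1.44 and *Ifnar1* at 1.02, and 0 toward PC20. Over all expressed genes 17.9% lay past 2-fold toward PC5 and 19.1% toward PC20, so neither of these counts is read as a result about its list. Of 5 interferon genes, 4 had 0 UMIs in both libraries, and *Ifnb1* had 21 and 22 UMIs.

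The 23 expressed interferon-stimulated genes were evenly divided, with 11 higher in PC5, 12 in PC20 and a median of -0.04. Past 2-fold lay 6 each way, beside 17.9% of all expressed genes toward PC5 and 19.1% toward PC20. Toward PC5 lay the guanylate-binding protein and related GTPase genes *Gbp2* at 3.69, *Irgm1* at 2.16, *Iigp1* at 1.94 and *Gbp3* at 1.44, with *Zbp1* at 2.74 and *Ifit1* at 1.32. Toward PC20 lay *Bst2* at -1.67, *Rsad2* at -1.56, *Irf7* at -1.42, *Isg15* at -1.25, *Ifit2* at -1.06 and *Rtp4* at -1.01. *H2-K1* and *H2-D1* lay further from 0 than each gene of the latter group.

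**Figure D4:**
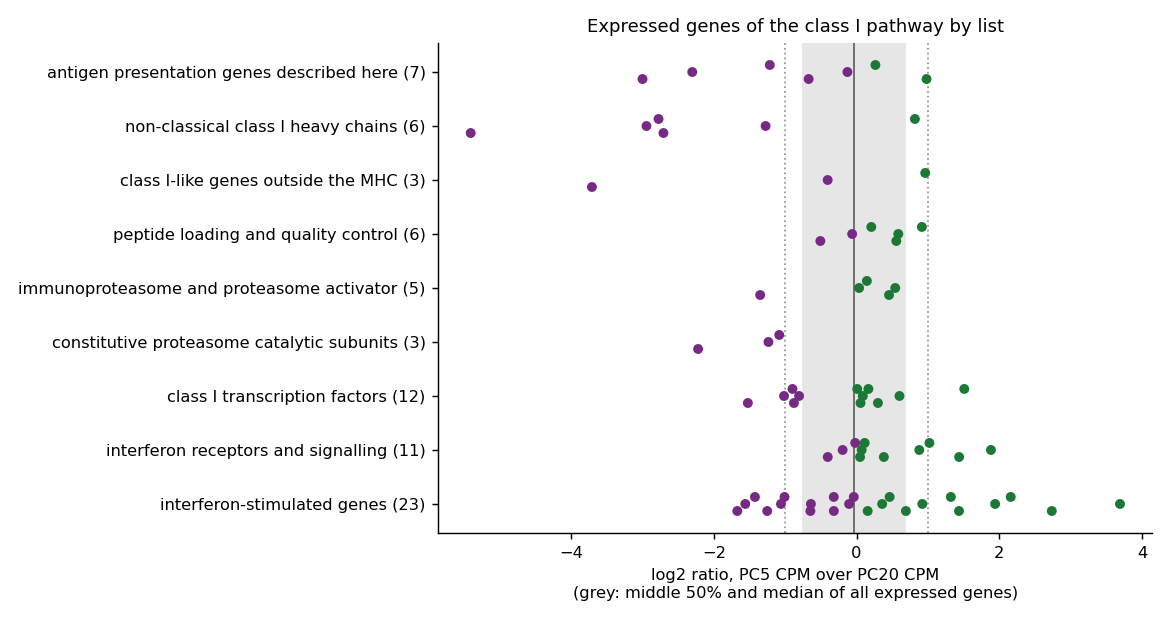
Log2 ratio of PC5 over PC20 CPM for the expressed genes of 9 lists (number of genes in parentheses), with the median and middle 50% of all 10504 expressed genes in grey, and dotted lines at 2-fold. The plotted classical and non-classical heavy chains but *H2-T22* lie left of -1. Most of the non-classical ones passed the filter for expressed genes in PC20 only, the library where they were found in more cells. Their side is thus no evidence of a shared direction. The loading, signalling and interferon-stimulated genes lie on both sides of 0.

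The genes around them showed no common direction. Between *Tapbp* and *H2-D1* on chromosome 17 lay 50 expressed genes. Without the 5 described here, 8 of the remaining 45 lay past 2-fold toward PC5 and 10 toward PC20 (17.8% and 22.2%), near the shares of all genes, with a median of -0.11.

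Microglia and other leukocytes carry abundant class I transcripts. Of 9 markers of these cells none was expressed in 10% of cells, and their summed level was 4.14 CPM in PC5 and 0.811 CPM in PC20. *Ptprc*, which all leukocytes express, had 1 UMI in PC5 and 0 in PC20, *Cd48* and *Adgre1* had 0 in both, and *Cx3cr1* led the list with 786 and 149 UMIs. Markers of other vessel cells differed as well. The 4 fibroblast markers summed to 1302 CPM in PC5 and 101 in PC20, of which *Col3a1* alone made 1158 and 101 CPM. The 4 smooth muscle markers summed to 283 and 49.6 CPM. Of these, *Tagln* had 219 and 0.230 CPM, while *Acta2* differed little, with 62.8 and 49.2 CPM. The 5 endothelial markers summed to 19.9 and 74.0 CPM, of which *Flt1* alone made 17.6 and 73.9 CPM. The part of leukocytes or of these vessel cells in the class I differences was not tested. Of 10 class II genes, 0 passed the filter for expressed genes, but low levels were captured, with 495 UMIs over the list in PC5 and 483 in PC20. *H2-DMa* had 240 UMIs in PC5 and 127 in PC20, *H2-DMb1* 68 and 332, and *H2-Ab1* 112 and 3. The invariant chain *Cd74* had 6 and 10 UMIs.

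Among cells of like depth the largest differences kept their direction and size, and several smaller ones did not. Among cells of 10000 to 20000, 20000 to 30000, 30000 to 40000 and 40000 to 60000 UMIs, bins chosen after the data were seen, *H2-D1* was at -3.11, -3.06, -3.21 and -3.22, *H2-K1* between -2.45 and -2.38, and *B2m* between -1.51 and -1.32, each further from 0 than over all kept cells. The bins held 3242, 3541, 1727 and 425 PC5 cells and 449, 1287, 948 and 1023 PC20 cells. Kept cells under 10000 or from 60000 UMIs upward were in no bin but count in the values over all kept cells. *Tapbp* went from 1.49 (1.24 to 1.75) in the shallowest bin to 1.18, 0.87 and 0.35 (0.21 to 0.49) in the deepest. Its level in PC5 was 53.8 CPM in the shallowest and 31.3 in the deepest cells, and in PC20 19.2 and 24.5 CPM. *Erap1* went from 0.21 (-0.10 to 0.54) and 0.34 (0.17 to 0.51) to -0.019 (-0.20 to 0.16) and -0.11 (-0.34 to 0.11). *Tap2* went from -0.39 to 0.12 (-0.11 to 0.36), -0.31 and -0.91. For both genes the values on the other side of 0 had intervals that spanned 0. A change of direction with depth was thus not resolved. *Tap1* lay between -0.96 and -0.44, and *Nlrc5* at -0.93, -0.73, -1.15 (-1.74 to -0.57) and -1.78 (-2.82 to -0.87), past 2-fold in the deeper bins. What sets depth per cell was not tested.

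**Figure D5:**
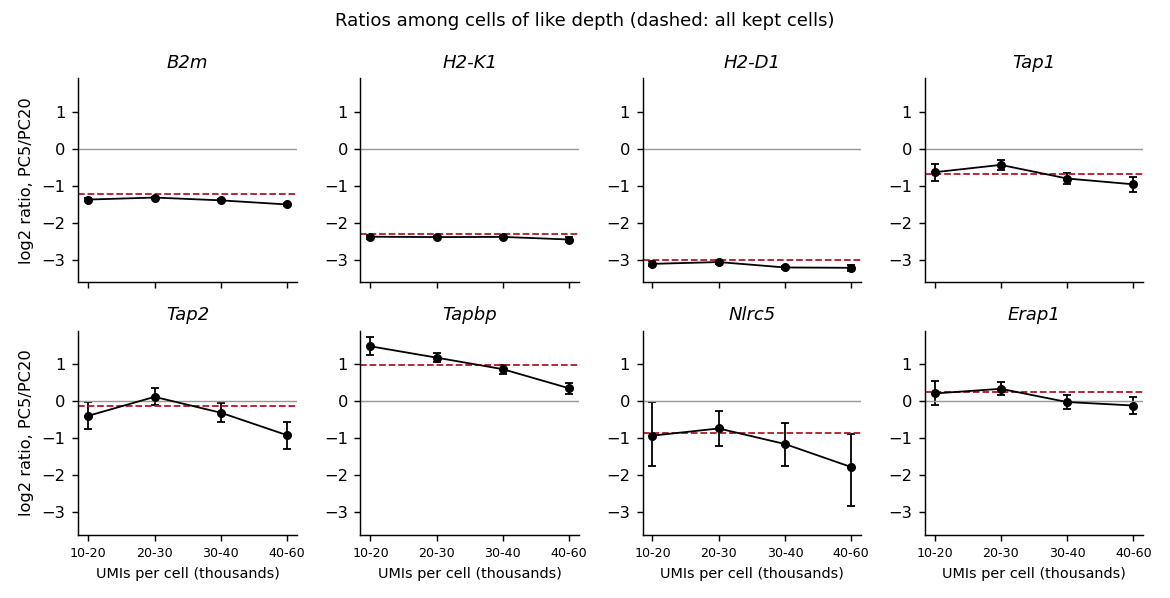
Log2 ratio of PC5 over PC20 CPM (vertical) for each of the 8 genes among cells of like depth (horizontal, bins of UMIs per cell), with 95% counting intervals and the value over all kept cells as a dashed line. The *B2m*, *H2-K1* and *H2-D1* points lie a little under their dashed lines, while *Tapbp* declines with depth. The *Tap2* and *Erap1* points cross 0, with intervals that span 0 where they do.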

How the data were processed

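The authors deposited UMI counts for each gene in each barcode, made with Cell Ranger 5.0 on mm10 from 10x 3′ v3.1 libraries without normalization, for barcodes called as cells. How reads matching several genes were treated is not given in the sources used here.

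The cell filter given above follows the study's methods and left 9950 and 4749 cells (223054273 UMIs in PC5, 191122251 in PC20). CPM, ratios without a pseudocount and exact intervals were computed in Python 3.11.15 with scipy 1.17.1. Thinning used 10500 UMIs, set at the 10th percentile of depth over both libraries in steps of 500, and left out 1103 PC5 and 275 PC20 cells. No doublet caller was run, and an alternative left out the 10% of cells with the most UMIs. Other alternatives were a stricter and no cell filter, non-dividing cells, thinned cells, other scalings (TMM of edgeR 4.0.16, centring, no mitochondrial or ribosomal protein genes), means over cells and bins of depth.

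On simulated libraries of Poisson counts with 200 changed genes, all 200 had the right sign. The changes were large and no variation between isolations was drawn, so this checks the calculation only. The genes and lists were chosen with earlier results of these data known. Named genes are the 8, list genes with at least 100 UMIs that a sentence needs, and the 5 most correlated genes per library. Marker, interferon and class II genes with fewer UMIs, and the genes of the promoter motifs and chromosome 17 region, were added after values were seen.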

Additional observations from a re-analysis of the deposited data

How the results depend on the processing

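The 13 alternatives left *B2m*, *H2-K1* and *H2-D1* past 2-fold toward PC20, with log2 ratios from -1.51 to -1.20, -2.45 to -2.28 and -3.22 to -2.98. *Tapbp* ranged from 0.35 to 1.49 and *Tap1* from -0.96 to -0.44. The number of the 8 genes past 2-fold toward PC5 went from 0 to 1, *Tapbp*, without the 10% of cells with the most UMIs, in thinned cells, with means over cells, and in cells of 10000 to 20000 and 20000 to 30000 UMIs. Toward PC20 it went from 3 to 4 through *Nlrc5*, at -1.15 and -1.78 in cells of 30000 to 40000 and 40000 to 60000 UMIs, and the range of *Nlrc5* was -1.78 to -0.55. The median log2 ratio of the 8 genes moved from -0.76 to -0.53 in cells without a UMI of *Mki67* or *Top2a*, and to -0.58, -0.98 and -1.23 in cells of 20000 to 30000, 30000 to 40000 and 40000 to 60000 UMIs. *Tap2* turned to 0.12 in cells of 20000 to 30000 UMIs, and *Erap1* to -0.019 and -0.11 in cells of 30000 to 40000 and 40000 to 60000 UMIs. The counting intervals of these turned values all spanned 0. The cause was not tested. The median of all expressed genes stayed between -0.11 and 0.03 under these alternatives. Depth limits *Nlrc5* most, on 230 and 355 UMIs. No paired analysis was possible because each passage has 1 library.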
